A study of Homo sapiens with 4 samples.

Results

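The dystrophin glycoprotein complex was followed through 8 of its genes, DMD, UTRN, DAG1, SGCA, SGCB, SGCD, SNTB1 and SSPN, which were taken by symbol from the 39323 genes of the expression tables. All 8 were found, and 7 of them had a mean of at least 1 TPM (a transcript level corrected for length and scaled to the same total in every library) over the libraries, as did 12985 genes in all. RNA had been sequenced from RD and JR1, established cell lines of fusion-negative rhabdomyosarcoma (FN-RMS), a tumour of cells that carry muscle-lineage factors but do not complete muscle differentiation. Each line had been infected with a lentivirus carrying a puromycin marker and either a non-targeting shRNA (shSCR) or an shRNA against SKP2 (shSKP2.2, labelled shSKP2), and all cells were grown in DMEM with serum. The labels give the genotype of shSCR cells as WT and that of shSKP2 cells as SKP2 knockdown, and the time of RNA collection is not given in the sources used here. Each line and shRNA was represented by 1 library, 4 libraries in all, and untransduced cells or a different SKP2 hairpin were not analysed here. Differences between libraries therefore have no replicate check and no p-value, and the depth of the libraries is unknown because TPM keep no read numbers.

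In muscle the complex ties the cytoskeleton to the extracellular matrix. Dystrophin binds actin inside the cell and β-dystroglycan at the membrane, α-dystroglycan binds laminin outside once it carries its sugar chains, the sarcoglycans and sarcospan form a subcomplex that holds dystroglycan in place, and the syntrophins gather signalling proteins at the cytoplasmic side. Loss of dystrophin causes Duchenne muscular dystrophy, loss of a sarcoglycan causes forms of limb-girdle muscular dystrophy, and utrophin, a relative of dystrophin, can stand in for it at the membrane.

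After SKP2 depletion the complex genes did not move together. With the TPM as deposited, DMD, which encodes dystrophin, was lower by more than 2-fold in both lines, while SGCD, which encodes δ-sarcoglycan, was 2.02-fold higher in JR1 and 1.15-fold higher in RD on the TPM + 1 scale. The size of the fall in DMD depends on the scaling, as given below, and in RD it can be short of 2-fold. UTRN and DAG1 were lower in both lines by less than 2-fold, SGCB stayed close to its control level, and SGCA was lower in RD but higher in JR1. Between the lines, SGCA was the member that differed most, at 4.01-fold higher in JR1 than in RD with shSCR. SSPN was at or near 0 in every library.

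For the most changed members and the dystrophin relative (DMD, SGCD and UTRN), the 250 bases before the start of the principal transcript are given, as RefSeq records them on GRCh38.p14. Capitals mark E-boxes, the letters CANNTG, which read the same on both strands and which basic helix-loop-helix factors such as MYOD can bind. The DMD window lies on the minus strand at chrX:33211550-33211799, the UTRN window on the plus strand at chr6:144285085-144285334 and the SGCD window on the plus strand at chr5:156326914-156327163.
DMD: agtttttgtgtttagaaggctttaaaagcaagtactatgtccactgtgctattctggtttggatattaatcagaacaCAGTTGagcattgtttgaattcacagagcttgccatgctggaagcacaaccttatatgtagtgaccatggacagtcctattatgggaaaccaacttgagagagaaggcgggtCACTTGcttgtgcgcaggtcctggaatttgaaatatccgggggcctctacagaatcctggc
UTRN: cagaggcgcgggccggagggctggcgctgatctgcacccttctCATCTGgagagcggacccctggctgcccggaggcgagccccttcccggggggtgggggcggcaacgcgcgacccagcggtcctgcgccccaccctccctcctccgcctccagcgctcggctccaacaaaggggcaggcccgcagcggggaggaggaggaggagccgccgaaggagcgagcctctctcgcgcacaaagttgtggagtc
SGCD: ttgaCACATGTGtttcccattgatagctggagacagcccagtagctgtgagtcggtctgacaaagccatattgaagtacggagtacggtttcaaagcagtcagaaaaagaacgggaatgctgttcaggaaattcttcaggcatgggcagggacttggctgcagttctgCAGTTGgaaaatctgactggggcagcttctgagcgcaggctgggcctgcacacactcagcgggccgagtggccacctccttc
The SGCD window held 3 matches to CANNTG, of which the first 2 overlap and show as a single run of capitals, the DMD window held 2, and the UTRN window held 1. Of 35116 RefSeq windows of this length, 61.8% held at least 1 such match, so its presence does not set these genes apart. The stricter form CAGCTG was found in 14.0% of all windows and in none of the 3 shown. CATTCC, letters that TEAD factors can bind, was searched on both strands and was found in 11.9% of all windows and once in that of SGCD. The 3 windows also differed in base composition, with 44% G and C for DMD, 53.2% for SGCD and 73.2% for UTRN. The windows of DAG1 and SGCB, both with 73.6% G and C, held 0 matches to CANNTG, and that of SSPN held 2. SGCA and SNTB1 were not matched in the sequence table. RefSeq gives 7 start windows for DMD, 2 for UTRN and 1 for SGCD. The windows of DMD and SGCD lie wholly inside the gene intervals given below, which reach further upstream. That of UTRN lies partly inside its interval. The TPM of a gene sums the transcripts from all its starts, so full-length dystrophin and its short forms are not separated here.

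The targeted transcript was checked first. SKP2 was at 92.8 TPM in RD shSCR and 7.40 TPM in RD shSKP2, and at 46.5 and 2.72 TPM in the JR1 libraries, which fits the labels. Both lines expressed the muscle-lineage factor MYOD1, at 87.0 to 131 TPM, and MYOG, at 31.6 to 107 TPM, whereas MYF5 was listed at 0 throughout and PAX7 lay between 1.16 and 10.8 TPM. The marker DES was at 39.3 TPM in RD shSCR and 43.4 TPM in RD shSKP2. In JR1 it was at 51.3 TPM with shSCR and 36.0 TPM with shSKP2, so it was lower after depletion there, unlike MYOD1 and MYOG. Summed markers of differentiated muscle (ACTA1, CKM, MYH3, MYH8 and TTN) went in RD from 7.02 to 22.9 TPM, and in JR1 from 16.6 to 81.4 TPM after depletion. In JR1 all 5 markers were higher with shSKP2, whereas in RD the higher sum came from TTN (0.880 to 10.4 TPM), CKM (2.92 to 6.65 TPM) and MYH8 (0.660 to 3.56 TPM), and ACTA1 (0.590 and 0.640 TPM) and MYH3 (1.97 and 1.71 TPM) lay close to their control level. Markers of epithelial, endothelial and blood cells, 3 genes of each, summed to at most 0.450 TPM for any group of markers in any library. Short structural RNAs such as 7SL and 7SK took a share of the TPM that differed between libraries, from 58.6% in RD shSCR to 69.1% in RD shSKP2 and from 66.5% to 72.1% in JR1. Since TPM sum to 1000000 in every library, the TPM of the other genes fell as that share grew, and across the tested genes the median change (log2) came to -0.27 for RD and -0.21 for JR1. Changes of the complex genes are therefore also given with the 657 structural RNA genes taken out and the rest rescaled to the same total, where these medians were 0.12 and 0.01. On that scale 15220 genes had a mean of at least 1 TPM, and its shares of all genes refer to these. The TPM are larger there, so the 1 added to each weighs less, and shares on the 2 scales are not for the same genes.

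DMD spans bases 31119219 to 33339460 of chromosome X. It was at 17.3 TPM in RD shSCR, 7.41 TPM in RD shSKP2, 13.4 TPM in JR1 shSCR and 5.23 TPM in JR1 shSKP2. Both depleted libraries lay below both control libraries. In bulk RNA, fewer cells with a transcript and less of it per cell cannot be told apart. On the log2 scale of TPM + 1 the change in RD was -1.12, against -1.21 in JR1, or 2.17-fold and 2.31-fold lower. Of all tested genes, 5.49% had a lower change than DMD in RD and 5.51% in JR1. DMD was the 1 member lower by at least 2-fold in RD, where 7.37% of all tested genes were, and the 1 in JR1, where 9.05% were, and 4.79% of all tested genes passed this limit in both lines. After the structural RNA genes were removed the change was -0.77 in RD, short of 2-fold, and -1.05 in JR1, so the size of the fall depends on the scaling while its direction does not. 3.46% of all genes were then lower by at least 2-fold in RD and 7.49% in JR1.

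UTRN, on chromosome 6 from base 144285261 to base 144853034, encodes utrophin. It was at 15.1 TPM in RD shSCR and 10.8 TPM in RD shSKP2, and at 19.6 and 15 TPM in the JR1 libraries. Its change in RD was -0.45, against -0.37 in JR1 on the deposited scale, and -0.06 and -0.12 without the structural RNA genes. Utrophin transcripts were thus lower in both lines by amounts that shrink to near 0 once the share of structural RNA is taken out. A ratio of a pair of genes within a library does not depend on that share. The TPM ratio of UTRN over DMD was 0.876 in RD shSCR and 1.46 in RD shSKP2, and 1.46 in JR1 shSCR and 2.86 in JR1 shSKP2. DMD was the higher of the 2 in RD control cells, and UTRN in the other 3 libraries.

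**Figure D1:**
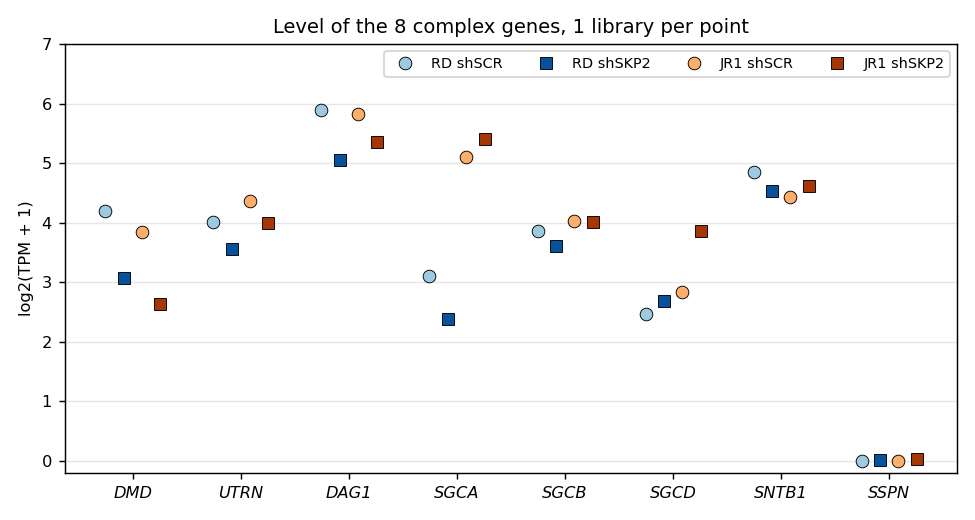
Level of each complex gene as log2(TPM + 1) on the vertical axis, with 1 point per library for RD shSCR, RD shSKP2, JR1 shSCR and JR1 shSKP2. The DMD points of both depleted libraries (7.41 and 5.23 TPM) lie below the control points (17.3 and 13.4 TPM), the SGCA points separate by cell line, and SSPN lies at the bottom.

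DAG1, on chromosome 3 from base 49468703 to base 49535618, encodes both chains of dystroglycan and was the most abundant member in RD and in JR1 shSCR. It was at 58.3 TPM in RD shSCR, 32.1 TPM in RD shSKP2, 55.8 TPM in JR1 shSCR and 39.8 TPM in JR1 shSKP2. The control libraries of the lines were close to each other, and both depleted libraries were lower. The change in RD was -0.84, against -0.48 in JR1, and -0.43 and -0.22 after the structural RNA genes were removed. DAG1 made up 40.4% of the summed TPM of the 8 members in RD shSCR and 34.4% in RD shSKP2, and its share in JR1 was 34.0% and 25.9%. Relative to DMD, however, it was higher after depletion, with a TPM ratio of 3.37 and 4.33 in RD and of 4.16 and 7.60 in JR1.

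The sarcoglycans took separate courses. SGCA, on chromosome 17 from base 50165517 to base 50175928, encodes α-sarcoglycan, a subunit typical of striated muscle. It was at 7.61 TPM in RD shSCR, 4.19 TPM in RD shSKP2, 33.5 TPM in JR1 shSCR and 41.4 TPM in JR1 shSKP2. Both JR1 libraries lay far above both RD libraries, and the depleted library was the lower of the pair in RD and the higher in JR1. Its change in RD was -0.73, against 0.30 in JR1, and -0.41 and 0.57 without the structural RNA genes, so the opposite directions did not depend on that scaling. A pseudogene of a histone H1 gene, H1-9P, overlaps the SGCA interval and had 0.230 to 4.11 TPM, and how strand was treated in counting is not given in the sources used here.

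SGCB, on chromosome 4 from base 52020706 to base 52038299, encodes β-sarcoglycan. It was at 13.6 TPM in RD shSCR, 11.2 TPM in RD shSKP2, 15.4 TPM in JR1 shSCR and 15.1 TPM in JR1 shSKP2. The JR1 libraries were nearly equal, and RD shSKP2 was the lowest of the 4. Its change in RD was -0.25, against -0.03 in JR1 as deposited, and 0.14 and 0.23 without the structural RNA genes, so its direction flips with the scaling.

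SGCD, on chromosome 5 from base 155728636 to base 156767788, encodes δ-sarcoglycan, which pairs with β-sarcoglycan in the core of the subcomplex. It was at 4.54 TPM in RD shSCR, 5.4 TPM in RD shSKP2, 6.15 TPM in JR1 shSCR and 13.5 TPM in JR1 shSKP2. The last of these libraries lay above the other 3, which were close to each other. The change was 1.02 in JR1, just past the 2-fold limit, and 0.21 in RD. SGCD was the 1 member higher by at least 2-fold in JR1, where 1.78% of all tested genes were, and 98.3% of all tested genes had a lower change. 0 members passed this limit in RD, where 1.08% of all tested genes did. Without the structural RNA genes SGCD had a change of 0.63 in RD, against 1.35 in JR1. The shares of all genes higher by at least 2-fold were then 4.4% and 4.91%. The TPM ratio of SGCD over SGCB was 0.335 in RD shSCR and 0.482 in RD shSKP2, against 0.400 and 0.893 in the JR1 libraries.

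Together the 3 sarcoglycan genes had 25.7 TPM in RD shSCR, 20.8 TPM in RD shSKP2, 55.0 TPM in JR1 shSCR and 69.9 TPM in JR1 shSKP2. The make-up of this sum separated the lines. SGCA was 29.6% of it in RD shSCR and 20.1% in RD shSKP2, and 60.9% and 59.2% in the JR1 libraries. SGCB held 52.7% and 53.9% in RD but 27.9% and 21.6% in JR1, and the share of SGCD was the larger with shSKP2 in each line, at 17.7% and 26.0% in RD and 11.2% and 19.2% in JR1.

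SNTB1, on chromosome 8 from base 120535756 to base 120812046, encodes β1-syntrophin, an adaptor that binds dystrophin and utrophin. It was at 28.0 TPM in RD shSCR, 22.2 TPM in RD shSKP2, 20.5 TPM in JR1 shSCR and 23.4 TPM in JR1 shSKP2. The change in RD was -0.32, against 0.18 in JR1, and 0.09 and 0.45 without the structural RNA genes, so the opposite directions seen with the TPM as deposited were not kept. SSPN, on chromosome 12 from base 26121951 to base 26234777, encodes sarcospan, a small membrane protein of the sarcoglycan subcomplex. It was listed at 0 TPM in both shSCR libraries, 0.0100 TPM in RD shSKP2 and 0.0200 TPM in JR1 shSKP2, and no fold is given at such levels.

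**Figure D2:**
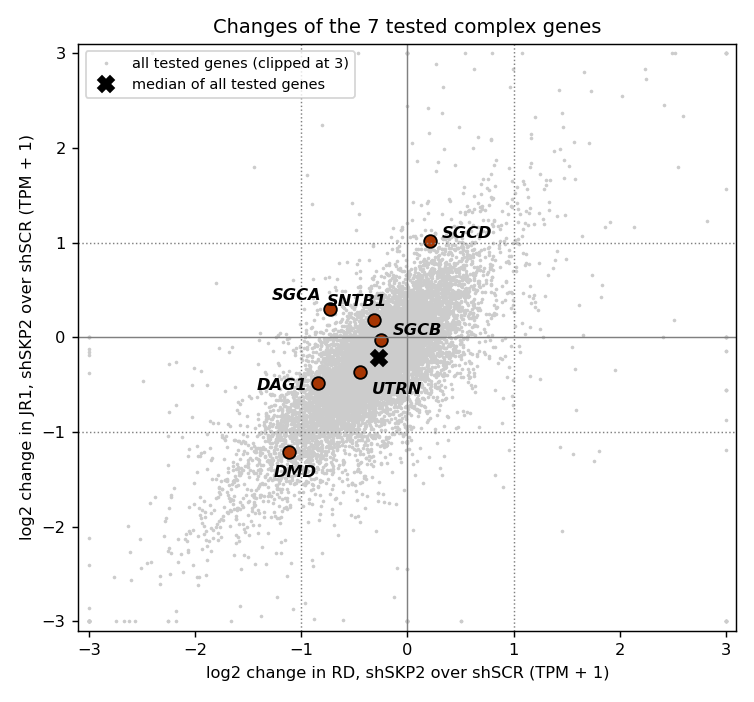
Log2 change of TPM + 1 from shSCR to shSKP2 in RD (horizontal axis) and in JR1 (vertical axis), with the 7 tested complex genes as labelled points, all tested genes in grey (values beyond 3 are drawn at 3) and their median as a cross. DMD lies in the lower left beyond -1 on both axes, SGCD just above 1 on the JR1 axis, SGCA in the upper left, and the remaining members within 1 of 0 on both axes.

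Over the 7 tested members the median of the log2 changes was -0.45 for RD and -0.03 for JR1, beside medians of -0.27 and -0.21 for all tested genes. 6 members were lower in RD, where 75% of all tested genes were, and 4 in JR1, where 68.9% were. Without the structural RNA genes 4 members were lower in RD and 3 in JR1, beside 39.2% and 48.9% of all genes. These shares do not set the complex as a whole apart from other genes. SGCA and SNTB1 had opposite signs in the lines, as did 21.3% of all tested genes.

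Because DMD was the member that fell most, the other tested members were higher relative to it. The TPM ratio of SGCB over DMD was 0.785 in RD shSCR and 1.51 in RD shSKP2, and 1.15 and 2.88 in the JR1 libraries. SGCD over DMD was 0.263 and 0.729 in RD, and 0.459 and 2.57 in JR1. SNTB1 over DMD was 1.62 and 3.0 in RD, and 1.53 and 4.48 in JR1. SGCA over DMD was 0.441 and 0.565 in RD, and 2.50 and 7.92 in JR1. In each line all 6 ratios were higher in the depleted library, which follows from the order of the changes and does not depend on the TPM scale.

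**Figure D3:**
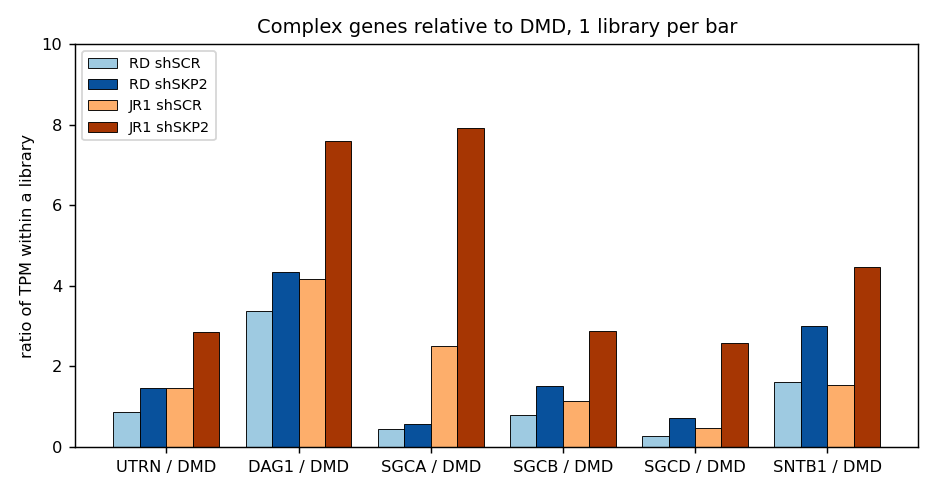
Ratio of the TPM of 6 complex genes to the TPM of DMD in the same library, with a linear axis from 0 and 1 bar per library. Every ratio is higher with shSKP2 than with shSCR of the same line, for example 1.46 against 0.876 for UTRN in RD and 7.92 against 2.50 for SGCA in JR1.

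The lines were then compared with each other. With shSCR, SGCA was the 1 member at least 2-fold higher in JR1, with a log2 difference (JR1 minus RD) of 2.0, beside 3.45% of all tested genes, and 0 members were higher in RD by 2-fold, beside 6.5%. UTRN (0.35), SGCD (0.37) and SGCB (0.17) were also higher in JR1, and DMD (-0.34), SNTB1 (-0.43) and DAG1 (-0.06) were higher in RD, none by 2-fold. With shSKP2, SGCA (3.03) and SGCD (1.18) were at least 2-fold higher in JR1, as were 2.7% of all tested genes, and 0 members were higher in RD by 2-fold, beside 5.39%. The difference of DMD was then -0.43 and those of UTRN, DAG1, SGCB and SNTB1 were 0.44, 0.30, 0.40 and 0.07. After the structural RNA genes were removed SGCA was higher in JR1 by 2.38 with shSCR and by 3.36 with shSKP2, and DAG1 with shSCR changed sign, to 0.24. In order of TPM, DAG1 led in RD shSCR, followed by SNTB1, DMD, UTRN, SGCB, SGCA and SGCD. In JR1 shSKP2 the order was SGCA, DAG1, SNTB1, SGCB, UTRN, SGCD and DMD, with SGCA and DAG1 and also SGCB and UTRN at nearly equal levels. DMD thus went from the third place to the fifth in RD and from the sixth to the seventh in JR1.

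Other subunits of the complex, 10 genes, were examined next, and 5 of them were tested. None of these passed the 2-fold limit with shSKP2 in either line on the deposited scale. Of all tested genes, 7.37% were lower by at least 2-fold in RD and 9.05% in JR1, and 1.08% and 1.78% were higher. The median changes of these subunits were -0.45 and -0.01, beside -0.27 and -0.21 for all tested genes. Without the structural RNA genes 7 were tested, the medians were 0.41 and 0.28, and 1 gene was higher by at least 2-fold in each line (4.4% and 4.91% of all genes were), in RD DTNA, which encodes α-dystrobrevin and was singled out after its values were seen, with a change of 1.01. SGCE encodes ε-sarcoglycan, which can take the place of α-sarcoglycan outside striated muscle. It was at 5.16 TPM in RD shSCR, 3.51 TPM in RD shSKP2, 28.8 TPM in JR1 shSCR and 31.2 TPM in JR1 shSKP2, so like SGCA it was higher in JR1 and moved in opposite directions in the lines.

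Dystroglycan binds its ligands only after its sugar chains are built, and 17 of 18 genes for enzymes of that pathway were tested. 15 of them were lower with shSKP2 in RD and 12 in JR1, beside 75% and 68.9% of all tested genes, with medians of -0.39 and -0.38. Without the structural RNA genes 9 and 10 of the 17 were lower, beside 39.2% and 48.9% of all genes. On the deposited scale 0 were lower by at least 2-fold in RD and 1 in JR1, beside 7.37% and 9.05% of all tested genes. 0 were higher by that much in either line, beside 1.08% and 1.78%. LARGE2, an enzyme that extends the ligand-binding chain, fell from 10.4 to 1.23 TPM in JR1 (log2 change -2.35), and in RD it was at 5.37 and 2.42 TPM (-0.90). POMK, a kinase that phosphorylates a mannose of the chain, was at 56.6 and 63.2 TPM in RD and at 33.8 and 44 TPM in JR1. DPM2, a subunit of the enzyme that makes the mannose donor, was at 52.1 and 46.0 TPM in RD and at 37.3 and 40.6 TPM in JR1.

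Extracellular ligands of dystroglycan and matrix proteins near it were the group with the most genes past the limit on the deposited scale. Of 12 tested genes of 13, all 12 were lower with shSKP2 in both lines on the deposited scale, where 75% and 68.9% of all tested genes were. 6 were lower by at least 2-fold in RD and 7 in JR1, beside 7.37% and 9.05% of all tested genes, with medians of -1.01 and -1.02. Without the structural RNA genes 11 of 13 were lower in RD, the exceptions being LAMA2 (0.04) and LAMC1 (0.11), and 13 of 13 in JR1. On that scale 3 in RD (BGN, COL6A2 and COL6A3) and 4 in JR1 (LAMA5, AGRN, HSPG2 and COL6A2) were lower by at least 2-fold, beside 3.46% and 7.49% of all genes. As deposited, COL6A3 was below 1 TPM in both RD libraries and was tested through its JR1 level. Its place in the RD counts of both scales therefore carries little weight. AGRN, which encodes agrin, a dystroglycan ligand of the neuromuscular junction, fell in RD from 69.8 to 26.9 TPM, and in JR1 from 73.0 to 25.8 TPM. HSPG2, which encodes perlecan, fell in RD from 12.5 to 5.24 TPM, and in JR1 from 24.7 to 8.78 TPM. LAMA5 fell in RD from 19.4 to 8.66 TPM, and in JR1 from 44 to 5.16 TPM, and LAMB2 from 34.3 to 16.1 TPM and from 47.4 to 21.8 TPM. LAMB1 passed the limit in JR1 (-1.01) and not in RD (-0.76), and LAMC1, the most abundant laminin gene of the list, was at 163 and 131 TPM in RD and at 112 and 78.4 TPM in JR1. BGN, which encodes biglycan, fell from 58.4 to 20.1 TPM in RD, and was at 65.5 and 42.3 TPM in JR1. Of the collagen VI genes, COL6A2 fell in RD from 68.5 to 16.2 TPM, and in JR1 from 126 to 42.9 TPM, COL6A1 was lower by 0.97 and 0.94 on the log2 scale, short of 2-fold, and COL6A3 fell from 81.0 to 39.0 TPM in JR1 but had only 0.900 and 0.10 TPM in RD.

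Of 11 genes for partners of the complex inside the cell and in the membrane, 8 were tested. 3 were lower by at least 2-fold in RD and 2 in JR1, beside 7.37% and 9.05% of all tested genes, 0 were higher by that much, and the list medians were -0.36 and -0.16. Without the structural RNA genes 9 were tested and the medians turned to 0.27 and 0.32. ITGA7 was then the 1 gene lower by at least 2-fold in RD, and ITGA7 and SYNM were the 2 in JR1, beside 3.46% and 7.49% of all genes. CAV3 (1.52), ANK3 (1.48), ANK2 (1.10) and CMYA5 (1.07) were higher by at least 2-fold in RD and ANK3 (2.06) in JR1, beside 4.4% and 4.91%. CAV3 encodes the muscle caveolin and ANK2 and ANK3 encode ankyrins, and these 4 genes were singled out after their values were seen. In RD as deposited, CAV3 was at only 0.47 and 1.58 TPM, ANK3 at 0.21 and 0.99 TPM and CMYA5 at 0.57 and 1.23 TPM. Their deposited changes in RD were short of 2-fold, at 0.81 for CAV3, 0.64 for ANK2 and 0.51 for CMYA5. ANK3, at 0.21 and 1.62 TPM in JR1, had a mean below 1 TPM and was not tested on that scale. ITGA7 encodes the α7 subunit of the laminin-binding integrin of muscle, which works beside dystroglycan. It fell in RD from 13.0 to 4.31 TPM, and in JR1 from 50.9 to 13.3 TPM. SYNM, which encodes synemin, an intermediate filament protein that binds dystrophin, fell in RD from 10.3 to 3.89 TPM, and in JR1 from 10.8 to 3.97 TPM. ITGB1 fell from 45.2 to 20.2 TPM in RD and was at 36.2 and 19.9 TPM in JR1. PLEC, which encodes plectin, was the most abundant gene of the list, at 117 and 77.9 TPM in RD and at 109 and 83.9 TPM in JR1. NOS1, which encodes the nitric oxide synthase that muscle anchors through syntrophin, had at most 0.0200 TPM in any library.

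The tested genes whose profile over the 4 libraries was nearest to that of a changed member, by Euclidean distance of log2(TPM + 1) after each gene was centred on its own mean, were CDK10 (0.0356), TMEM160 (0.0477) and PRELID3B (0.0513) for DMD, and ZASP (0.0709), PGM5P2 (0.0825) and KCNS3 (0.0837) for SGCD. CDK10, for example, was at 16.0 and 6.97 TPM in RD and at 12.3 and 4.93 TPM in JR1. With 4 libraries and many genes, near profiles are common, so these names are a description only.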

How the data were processed

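RNA was extracted from infected RD and JR1 cells, poly-A selected and made into directional libraries read in pairs. The authors aligned reads with STAR 2.7.9a to GRCh38 and deposited TPM per gene from RSEM 1.3.2, with 2 decimals. Here 1 was added to each TPM and changes were taken as log2 ratios between libraries, where the added 1 understates changes of low genes. Genes were called tested from a mean of 1 TPM upward, and a change of at least 2-fold in either direction was the limit. With 1 library per group no test was run. Alternatives were 0.1 TPM added, centring on the median, removal of structural RNA genes by symbol with TPM rescaled, no minimum beyond 0 TPM, a minimum of 5 TPM on the mean and a limit of 1.5-fold. The members and lists were chosen with earlier results of these data known. Named genes were the members, SKP2, list genes past 2-fold in a knockdown and the top 2 of each list by mean TPM. A gene that this rule gave is not reported here, but stays in the counts of its list. Promoter windows came from RefSeq, at the start of the GENCODE 44 MANE Select transcript. The script was tested on simulated data. Python 3.11.15, numpy 2.4.6, pandas 2.3.3 and matplotlib 3.10.9 were used.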

Additional observations from a re-analysis of the deposited data

Results flagged for a closer look

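With the TPM as deposited, 4 of the reported genes that were named by rule moved in opposite directions in the lines after SKP2 depletion. Of all tested genes, 21.3% did so. In each case the difference was not tested, since each direction rests on 1 pair of libraries. The difference between the log2 changes, JR1 minus RD, was 1.03 for SGCA, 0.50 for SNTB1, 0.56 for SGCE and 0.30 for DPM2. All 4 were lower in RD and higher in JR1. DTNA (0.53 in RD and -0.01 in JR1) and the markers MYH3 (-0.13 and 1.15) and DES (0.14 and -0.50), named outside that rule, also had opposite signs. DTNA and DES went the other way, higher in RD and lower in JR1. After the structural RNA genes were removed SGCA (-0.41 in RD and 0.57 in JR1) and SGCE (-0.12 and 0.38) kept opposite signs, and SNTB1 and DPM2 were higher in both lines.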

How the results depend on the processing

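Among the tested members, 1 was past the 2-fold limit in RD (DMD), and this number was 0 after centring on the median, 0 without the structural RNA genes and 3 with a limit of 1.5-fold (DMD, DAG1 and SGCA). In JR1 the number was 2 (DMD and SGCD) and fell to 1 after centring, where DMD came just short of the limit. The share of all genes past 1.5-fold was not counted. Of all tested genes, 11.7% had a lower change in RD than DAG1 and 15.6% a lower one than SGCA, so passing 1.5-fold there is common. In the comparisons of the lines the numbers of 1 with shSCR and 2 with shSKP2 held under all 6 alternatives. 0 changes past the limit reversed. SGCB changed sign in both lines under centring and without the structural RNA genes, as did SNTB1 in RD without them. Leaving out a replicate was not possible, and the precision of a single TPM value is unknown.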
